A study of Mus musculus with 2 samples.

Results

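The 7 genes described here encode the interferon-γ receptor and the proteins next to it in the pathway: Ifngr1, Ifngr2, Jak1, Jak2, Irf1, Socs1 and Ptpn2. They were taken by symbol from the 32285 genes of 2 single-cell 3′ RNA libraries, and their unique molecular identifiers (UMIs, counted RNA molecules) were summed over barcodes assigned by marker genes to lymphatic endothelial, blood endothelial, melanoma or macrophage classes. The libraries came from Ifngr1iProx1 mice (Cre plus) and from Ifngr1WT mice (Cre minus). The name Ifngr1iProx1 ties the deletion of Ifngr1 to Prox1, a transcription factor needed for lymphatic endothelial identity, and the labels state neither the Cre transgene, an inducing agent nor the deleted part of the gene. All mice carried B16F10-OVALBUMIN/VEGFC tumors, from a mouse melanoma line modified to express ovalbumin as a model antigen and the lymphatic growth factor VEGF-C. For both genotypes 500K cells were injected into the skin, and on day 15 a pool of 3 tumors was sorted for live CD31-positive, CD45-negative cells. Each genotype gave 1 library, so no test of the genotype was possible. Brackets hold 95% intervals, which reflect counting error alone and not differences between animals, tumors or sorts. For levels and ratios they also leave out the spread of UMIs between barcodes.

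Interferon-γ binds the Ifngr1 chain, and the partner chain Ifngr2 completes the signalling receptor. The kinases Jak1 and Jak2, held by the receptor chains, pass the signal on to target genes that carry GAS elements in their promoters, such as Irf1, itself a transcription factor. Socs1, induced by the same signal, inhibits the kinases, and the phosphatase Ptpn2 removes phosphate from Jak1. In endothelium the pathway is known for raising antigen presentation and T cell chemokines.

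Promoters of 6 of the 7 genes, from RefSeq on GRCm38.p6, were searched from 250 bases before to 50 bases after the transcription start. The GAS motif TTCNNNGAA, which reads the same on both strands, was found in 1 of them, at the first of 2 annotated Irf1 starts. An ISRE-like motif, a pair of GAAA runs with any 2 bases between, searched on both strands, was found in that of Socs1. Both promoters are shown because these genes are the pathway's own targets among the 7, with the matches in capitals, 5′ to 3′ on the strand of the gene (Irf1 at chr11:53769764-53770063, plus strand; Socs1 at chr16:10785487-10785786, minus strand).
Irf1: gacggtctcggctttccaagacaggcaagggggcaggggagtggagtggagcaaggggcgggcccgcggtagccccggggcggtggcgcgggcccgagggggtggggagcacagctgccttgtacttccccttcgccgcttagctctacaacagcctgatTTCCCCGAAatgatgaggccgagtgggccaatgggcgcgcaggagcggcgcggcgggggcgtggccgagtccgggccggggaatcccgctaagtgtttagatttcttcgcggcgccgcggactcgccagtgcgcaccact
Socs1: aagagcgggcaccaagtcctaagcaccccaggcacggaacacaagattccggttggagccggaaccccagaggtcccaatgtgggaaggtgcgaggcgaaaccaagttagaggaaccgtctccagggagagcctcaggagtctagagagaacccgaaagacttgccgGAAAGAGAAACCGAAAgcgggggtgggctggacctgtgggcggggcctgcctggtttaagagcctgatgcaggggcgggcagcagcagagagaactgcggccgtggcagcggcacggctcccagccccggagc
The Irf1 match, TTCCCCGAA, starts 90 bases before the start site. In Socs1 a pair of overlapping matches, GAAAGAGAAA and GAAACCGAAA, begin 83 and 77 bases before the start. Of 32851 mouse promoters of this length, 8.30% hold the GAS letters and 3.44% the ISRE-like letters, and neither motif was found in the windows of Ifngr1, Ifngr2, Jak1, Jak2 or the other Irf1 start. A match of letters is not a measured binding site.

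In Cre plus 66704257 UMIs were counted in 2491 barcodes, of which filters kept 1777, and in Cre minus 76967583 UMIs in 2502 barcodes, of which 1549 were kept. The lymphatic class held 674 of the Cre plus and 164 of the Cre minus barcodes, the blood endothelial class 185 and 200, the melanoma class 474 and 810, and the macrophage class 40 and 59, so the sorted cells were not endothelial alone. Prox1 stood at 594 and 477 CPM (the gene's UMIs as a part of all UMIs of the class, on the usual CPM scale) in lymphatic barcodes and at 0.747 and 0 CPM in blood endothelial barcodes. The lymphatic classes differed in more than genotype. Malat1, a nuclear RNA, made up at least 0.1% of the UMIs in 62.5% of lymphatic barcodes in Cre plus and in 22.0% in Cre minus. The median depth of the lymphatic class was 18233 UMIs in Cre plus, against 6000 in Cre minus, and across all well-measured genes its median log2 ratio of Cre plus over Cre minus was 0.21. Lymphatic ratios are therefore also given relative to that median and within Malat1-rich and Malat1-poor barcodes. The part of these differences in the results was not tested. The median over all genes lay within 0.03 of 0 in the other 3 classes.

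Ifngr1, the deleted gene (mm10 chr10:19591949-19610229, plus strand, 7 exons), was lower in lymphatic barcodes of Cre plus. Its 473 UMIs in Cre plus came to 29.8 [27.2, 32.6] CPM, and its 87 UMIs in Cre minus to 52.7 [42.2, 65.0] CPM. The intervals do not overlap. The log2 ratio was −0.82 [−1.15, −0.47], and −1.03 relative to the median of all genes. Among Malat1-rich lymphatic barcodes, of which Cre plus held 421 and Cre minus 36, Ifngr1 had 32.4 and 87.6 CPM, giving a log2 ratio of −1.44 [−1.80, −1.05]. In Malat1-poor barcodes only 31 and 18 UMIs were counted, and the ratio of −0.57 [−1.45, 0.36] could not be told from 0.

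The lymphatic Ifngr1 ratio varied with the barcodes used, and the intervals of these values overlap. In Cre minus 10 barcodes held 54.0% of the lymphatic Ifngr1 UMIs, against 12.7% held by 10 barcodes in Cre plus. Only 39 of 164 Cre minus barcodes held any, against 264 of 674 in Cre plus. The same number of barcodes is therefore a larger part of the Cre minus class, and the 2 percentages are not alike. Leaving out the 5 richest barcodes of each library, an alternative chosen after seeing the data, gave −0.51 [−0.91, −0.09]. This too removes a larger part of the smaller Cre minus class, which moves the ratio upward by design. A stricter class, whose lymphatic score had to be at least 4 times every other score, kept 384 Cre plus and 89 Cre minus barcodes and gave −0.30 [−0.83, 0.29], which could not be told from 0. That value rests on 282 and 31 UMIs, and its interval also holds the −0.82 of the main class. Of those barcodes 63.3% and 23.6% were Malat1-rich, and within them the ratio was −0.89 [−1.49, −0.22].

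Ifngr1 RNA was still counted in Cre plus lymphatic barcodes. An Ifngr1 UMI was found in 39.2% [35.5, 43.0] of them, against 23.8% [17.5, 31.0] in Cre minus, an order opposite to the CPM at unequal depth. After thinning every barcode to 2000 UMIs, which left out 34 and 4 shallower barcodes, the shares were 5.16% [3.58, 7.17] and 8.13% [4.40, 13.5], and these intervals overlap. In Malat1-rich lymphatic barcodes the shares were 56.8% and 63.9%, and 50 of 421 barcodes in Cre plus had 3 or more Ifngr1 UMIs, against 10 of 36 in Cre minus. In red-cell barcodes, where over 50% of UMIs are haemoglobin, an Ifngr1 UMI was held by 1 of 234 in Cre plus (0.427% [0.011, 2.36]), against 0 of 223 in Cre minus (0% [0, 1.64]), at median depths of 6761 and 7831 UMIs. The tags of this kit are read at the 3′ end, and the last exon of Ifngr1 lies at chr10:19609137-19610229. Since a tag can lie outside the deleted stretch, the UMIs that remain are no measure of recombination.

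In blood endothelial barcodes, with almost no Prox1 RNA, Ifngr1 was not lower. Its level was 188 [174, 201] CPM in Cre plus, against 162 [147, 177] CPM in Cre minus, from 753 and 478 UMIs, a log2 ratio of 0.21 [0.05, 0.38]. The sign of this small ratio turned in Malat1-poor barcodes (−0.26 [−1.23, 0.67]) and after thinning (−0.10 [−0.65, 0.44]). The lymphatic minus the blood endothelial log2 ratio came to −1.04 [−1.40, −0.67]. The same levels can be set against each other within each library: lymphatic over blood endothelial Ifngr1 was −2.65 [−2.82, −2.48] on the log2 scale in Cre plus and −1.62 [−1.96, −1.28] in Cre minus. Lymphatic barcodes thus held less Ifngr1 than blood endothelial ones in both libraries. The wider gap in Cre plus restates the difference above and adds no separate evidence. In melanoma barcodes Ifngr1 was at its lowest of the 4 classes, with 10.7 [9.68, 11.8] and 12.01 [11.1, 12.9] CPM and a log2 ratio of −0.16 [−0.35, 0.02].

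Macrophage barcodes also held less Ifngr1 in Cre plus. Ifngr1 stood at 83.2 [68.7, 99.99] CPM in Cre plus, from 114 UMIs, and at 151 [133, 171] CPM in Cre minus, from 246 UMIs, a log2 ratio of −0.86 [−1.19, −0.53]. These barcodes were few, and 4 of 40 in Cre plus held 33 Prox1 UMIs, 18 of them in 1 barcode, against 1 UMI in 59 barcodes of Cre minus. Lymphatic markers were also counted more often: 65.0% (26 of 40) and 42.4% (25 of 59) of the macrophage barcodes held at least 1 UMI of the 7 marker genes. Of these 758 and 510 marker UMIs, Ccl21a gave 393 and 237, Lyve1 118 and 114, and Pdpn 90 and 135. Flt4 gave 68 and 12, Mmrn1 40 and 8, Reln 16 and 3, and Prox1 the 33 and 1 above. Whether the marker UMIs came from lymphatic cells or from the macrophages themselves was not tested. Without those 26 and 25 barcodes, which may include true macrophages, the ratio was −1.52 [−2.15, −0.94]. When classes were taken from Leiden clusters instead, the macrophage cluster held 71 and 98 barcodes and the ratio was −0.20 [−0.40, −0.002]. Of its 169 barcodes 99 were in the macrophage gate, so this cluster also held barcodes that the gate did not call macrophages. The macrophage value therefore ranged widely with the choice of barcodes.

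**Figure D1:**
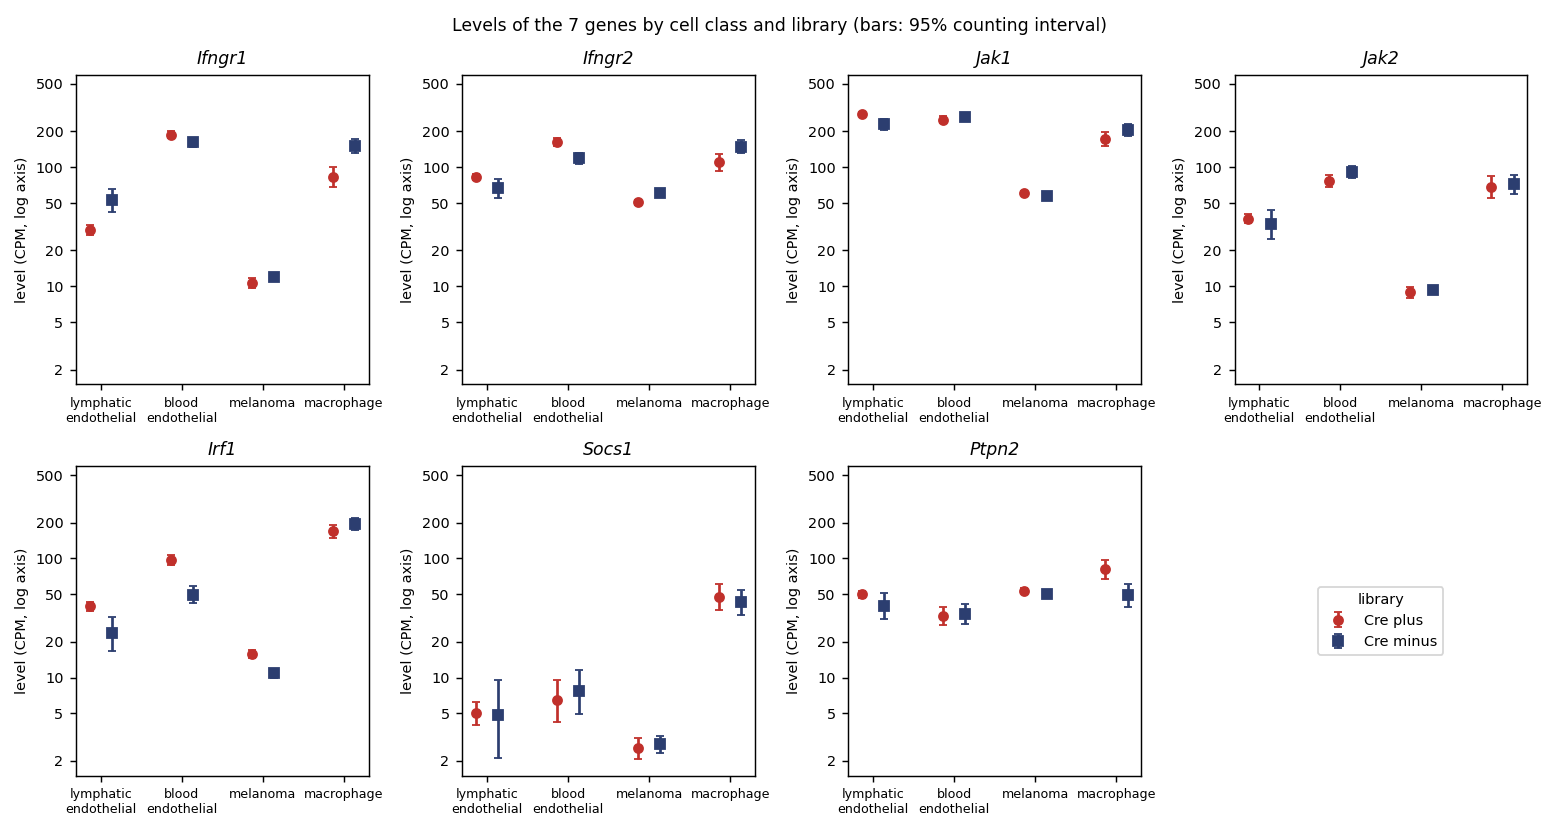
Level of each of the 7 genes (CPM, log axis) in 4 cell classes, with Cre plus as circles and Cre minus as squares, and bars for 95% counting intervals. Ifngr1 is lower in Cre plus in the lymphatic (29.8 and 52.7 CPM) and macrophage (83.2 and 151 CPM) classes, and Irf1 is higher in Cre plus in the blood endothelial class (97.6 and 49.7 CPM).

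Ifngr2, the partner chain, was slightly higher in Cre plus lymphatic barcodes. It stood at 83.2 [78.8, 87.8] CPM in Cre plus, against 66.6 [54.8, 80.3] CPM in Cre minus, from 1320 and 110 UMIs, a log2 ratio of 0.32 [0.04, 0.62]. Relative to the median of all genes this was 0.11 [−0.17, 0.40], which includes 0. Within Malat1-rich barcodes, where that median was −0.079, Ifngr2 was at 0.49 [0.06, 0.95]. Blood endothelial Ifngr2 had levels of 163 [151, 176] and 119 [107, 132] CPM, with a log2 ratio of 0.45 [0.26, 0.64], with intervals that do not overlap. In Malat1-poor blood endothelial barcodes, with 37 and 59 UMIs, the ratio was −0.071 [−0.70, 0.55].

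In melanoma and macrophage barcodes Ifngr2 was lower in Cre plus. Melanoma barcodes had 50.5 [48.2, 52.9] and 60.2 [58.3, 62.2] CPM, a log2 ratio of −0.25 [−0.34, −0.17]. Macrophage barcodes had 110 [92.7, 129] and 149 [130, 168] CPM, a log2 ratio of −0.44 [−0.74, −0.14]. The thinned macrophage value, from 28 UMIs in all, was 0.30 [−0.91, 1.47]. The few pericyte and fibroblast barcodes, 30 of Cre plus, against 20 of Cre minus, went the other way, with Ifngr2 at 160 [139, 183] and 84.3 [61.5, 113] CPM from 217 and 45 UMIs.

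The balance of the chains differed between classes. Ifngr1 made up 26.4% [24.4, 28.5] of the UMIs of both chains in lymphatic barcodes of Cre plus and 44.2% [37.1, 51.4] in Cre minus. Blood endothelial shares were 53.5% [50.9, 56.2] and 57.6% [54.1, 61.0], in melanoma barcodes 17.5% [15.9, 19.1] and 16.6% [15.5, 17.8], and in macrophage barcodes 43.2% [37.1, 49.4] and 50.4% [45.9, 54.9]. The lymphatic intervals of the libraries lie apart, and those of the other 3 classes overlap. In the 11 T and NK barcodes of each library Ifngr1 made up 93.8% [87.7, 97.5] and 91.7% [84.2, 96.3], with Ifngr1 at 483 [396, 584] and 549 [441, 677] CPM, the highest Ifngr1 level of any class in either library. These shares are compared only across classes and libraries, since the 3′ tags of the 2 genes need not be captured equally.

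Jak1, the kinase associated with Ifngr1, differed by less than 1.5-fold between the libraries in all 4 classes. In lymphatic barcodes it stood at 281 [273, 289] CPM in Cre plus, against 228 [206, 253] CPM in Cre minus, from 4454 and 377 UMIs. The log2 ratio of 0.30 [0.15, 0.45] came to 0.088 relative to the median of all genes, and to 0.19 [−0.02, 0.40] in Malat1-rich barcodes. Blood endothelial Jak1 stood at 251 and 263 CPM, with a log2 ratio of −0.07 [−0.20, 0.07], and in melanoma barcodes at 60.8 and 57.0 CPM, with 0.09 [0.02, 0.17]. In macrophage barcodes it stood at 172 and 206 CPM, with −0.25 [−0.50, −0.01], a sign that turned to 0.21 [0.05, 0.38] with classes from clusters. That value rests on the mixed macrophage cluster described above.

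Jak2, the kinase associated with Ifngr2, had lower counts. Its lymphatic level was 37.1 [34.1, 40.2] CPM in Cre plus, from 588 UMIs, and 33.3 [25.1, 43.4] CPM in Cre minus, from 55 UMIs. The log2 ratio of 0.15 [−0.25, 0.58] includes 0, but in Malat1-rich lymphatic barcodes, with 561 and 48 UMIs, it was −0.57 [−0.995, −0.11]. Relative to the median of all genes, the ratio over all lymphatic barcodes was −0.056 [−0.46, 0.37]. Blood endothelial barcodes had 76.4 [68.1, 85.5] and 91.3 [80.7, 103] CPM, a log2 ratio of −0.26 [−0.50, −0.01]. In melanoma barcodes Jak2 stood at 8.90 and 9.31 CPM, with −0.07 [−0.27, 0.14], and in macrophage barcodes at 68.6 and 72.4 CPM, with −0.08 [−0.48, 0.33].

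Irf1, an early target gene of the pathway, was not lower in Cre plus lymphatic barcodes. Its 628 UMIs in Cre plus came to 39.6 [36.6, 42.8] CPM, and its 39 UMIs in Cre minus to 23.6 [16.8, 32.3] CPM, a log2 ratio of 0.75 [0.28, 1.25]. Relative to the median of all genes this was 0.53 [0.07, 1.04]. Within Malat1-rich lymphatic barcodes Irf1 stood at 44.0 and 36.8 CPM, with 0.26 [−0.28, 0.85]. Within Malat1-poor ones it stood at 12.3 and 11.6 CPM, with 0.08 [−1.01, 1.29]. Malat1-rich barcodes of both libraries held more Irf1 than Malat1-poor ones, and the share of Malat1-rich barcodes differed between the libraries, and the ratio over all lymphatic barcodes was larger than that within either kind. In lymphatic barcodes, where Ifngr1 was lower, a lower Irf1 level was therefore not seen, and the interval in Malat1-rich barcodes still spans ratios from −0.28 to 0.85.

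In blood endothelial barcodes Irf1 was about 1.96 times as high in Cre plus. It stood at 97.6 [88.2, 108] CPM in Cre plus, against 49.7 [42.0, 58.4] CPM in Cre minus, from 392 and 147 UMIs, a log2 ratio of 0.97 [0.70, 1.26]. In Malat1-rich blood endothelial barcodes the ratio was 0.94 [0.66, 1.24], and in Malat1-poor ones, with 12 UMIs in each library, 0.60 [−0.68, 1.89]. Melanoma barcodes had 15.7 [14.5, 17.1] and 10.8 [10.0, 11.7] CPM, a log2 ratio of 0.54 [0.37, 0.70], which was 0.70 [0.53, 0.88] in Malat1-rich barcodes and −0.77 [−1.33, −0.23] in Malat1-poor ones. Macrophage barcodes had 169 [148, 193] and 195 [174, 217] CPM, a log2 ratio of −0.20 [−0.45, 0.05]. That value moved to −1.80 [−2.37, −1.26] without barcodes holding lymphatic markers and to 0.29 [−0.05, 0.62] without the 5 richest barcodes of each library, and 10 barcodes held 70.3% and 64.4% of its UMIs.

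**Figure D2:**
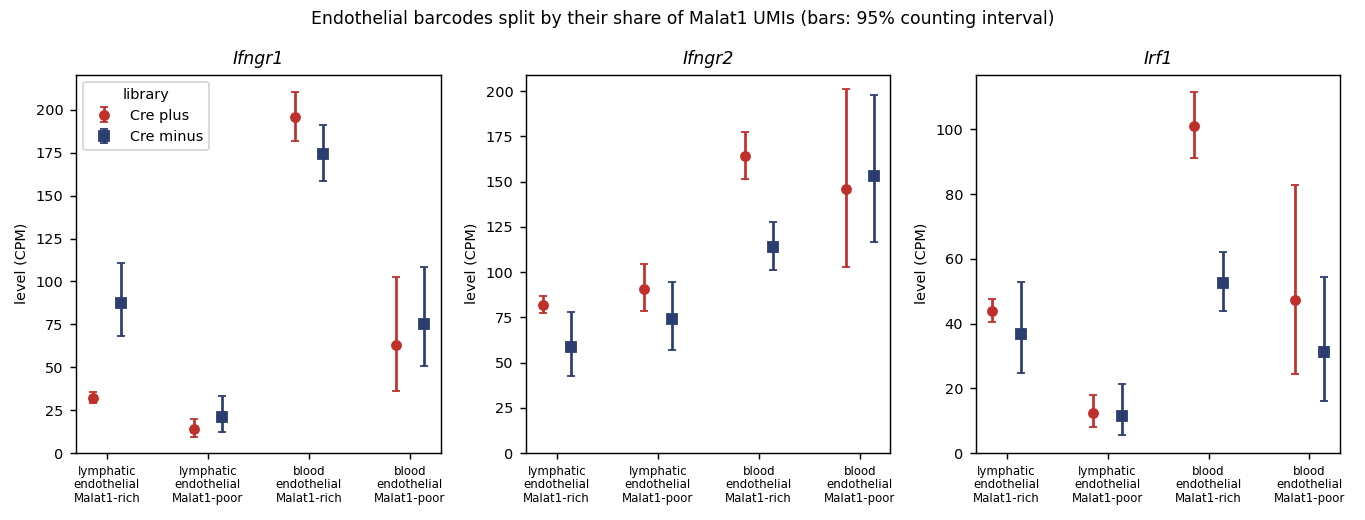
Level of Ifngr1, Ifngr2 and Irf1 (CPM) in lymphatic and blood endothelial barcodes whose share of Malat1 UMIs was 0.1% or more (Malat1-rich) or under it (Malat1-poor), with Cre plus as circles, Cre minus as squares and bars for 95% counting intervals. In Malat1-rich lymphatic barcodes Ifngr1 stands at 32.4 CPM in Cre plus, against 87.6 CPM in Cre minus, while the Irf1 intervals overlap in both kinds of lymphatic barcodes.

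Socs1, the kinase inhibitor, was low in endothelial and melanoma barcodes and higher in macrophage barcodes. Lymphatic barcodes held 80 Socs1 UMIs in Cre plus, against 8 in Cre minus, at 5.04 [3.9996, 6.28] and 4.85 [2.09, 9.55] CPM, and the log2 ratio of 0.06 [−0.99, 1.32] spans lower and higher levels alike. Relative to the median of all genes this ratio was −0.15 [−1.20, 1.11]. Blood endothelial barcodes held 26 and 23 UMIs, under the minimum of 50 set for a call. Melanoma barcodes stood at 2.56 and 2.75 CPM, and macrophage barcodes at 47.5 [36.6, 60.5] and 43.0 [33.5, 54.3] CPM, with log2 ratios of −0.11 [−0.49, 0.27] and 0.14 [−0.37, 0.65]. The T and NK barcodes, 11 in each library, reached a like level of 45.6 [21.9, 83.8] and 56.2 [25.7, 107] CPM from 10 and 9 UMIs. Few barcodes carried it: 10 macrophage barcodes held 86.2% of its UMIs in Cre plus, against 88.6% in Cre minus.

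Ptpn2, the phosphatase, was the most evenly spread of the 7 genes over the lymphatic, blood endothelial, melanoma and macrophage classes. It stood at 49.9 [46.5, 53.5] and 40.0 [30.9, 50.9] CPM in lymphatic barcodes, a log2 ratio of 0.32 [−0.04, 0.70] that was −0.11 [−0.54, 0.35] in Malat1-rich and 0.03 [−0.74, 0.85] in Malat1-poor barcodes. Relative to the median of all genes, the ratio over all lymphatic barcodes was 0.11. Blood endothelial barcodes had 33.1 and 34.5 CPM, with −0.06 [−0.44, 0.33], and melanoma barcodes 53.6 and 50.7 CPM, with 0.08 [−0.004, 0.16]. In macrophage barcodes Ptpn2 stood at 81.0 [66.7, 97.6] CPM in Cre plus, against 49.1 [38.9, 61.1] CPM in Cre minus, a log2 ratio of 0.72 [0.30, 1.16], the reverse of Ifngr1 in the same barcodes.

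Counting members whose level differed by more than 1.5-fold, among those with at least 50 UMIs in both libraries together, gave few in any class. In lymphatic barcodes 1 of 7 was higher in Cre plus (Irf1), beside 20.6% of all 11153 genes measured, and 1 of 7 was lower (Ifngr1), beside 2.84%. In blood endothelial barcodes 1 of 6 measured was higher (Irf1), beside 6.74% of 9394 genes, and 0 were lower, beside 5.87%. In melanoma barcodes 0 of 7 passed in either direction, beside 2.66% of 13430 genes higher and 2.52% lower. In macrophage barcodes 1 of 7 was higher (Ptpn2), beside 8.67% of 6815 genes, and 1 was lower (Ifngr1), beside 6.75%. In Malat1-rich lymphatic barcodes only Ifngr1 of the 7 passed, beside 15.3% of 11009 genes lower and 11.6% higher. The median log2 ratio of the 7 lymphatic values was 0.30, against 0.23 over all genes measured.

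**Figure D3:**
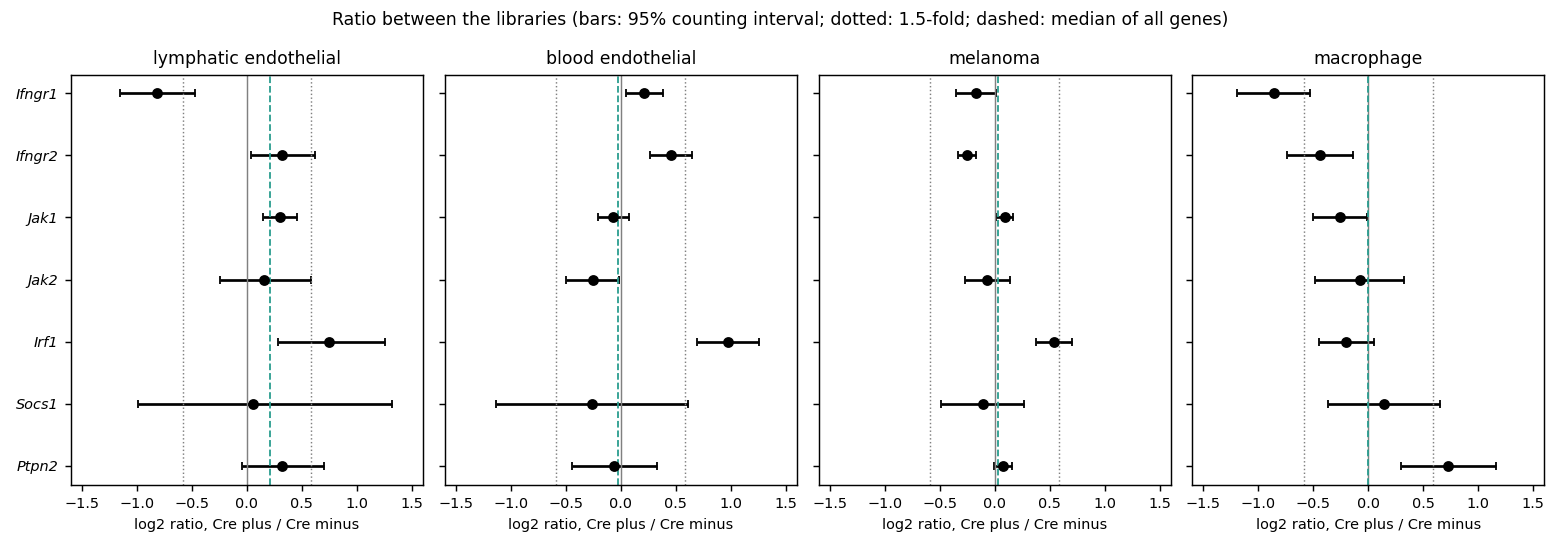
Log2 ratio of Cre plus over Cre minus for the 7 genes in 4 cell classes, with bars for 95% counting intervals, dotted lines at 1.5-fold and a dashed line at the median of all well-measured genes. Ifngr1 lies below 0 in lymphatic (−0.82) and macrophage (−0.86) barcodes, and Irf1 lies above 0 in lymphatic (0.75), blood endothelial (0.97) and melanoma (0.54) barcodes.

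The order of these 4 classes differed between the genes. Ifngr1 and Jak2 followed the same order in both libraries, from blood endothelial through macrophage and lymphatic to melanoma barcodes. The intervals of the highest pair overlapped for Jak2 in both libraries, and for Ifngr1 in Cre minus only. Irf1 was highest of the 4 in macrophage barcodes, then blood endothelial, lymphatic and melanoma ones, with all neighbours apart in both libraries. The few T and NK barcodes, outside this order, held 182 [130, 248] and 287 [210, 383] CPM of Irf1, against 169 [148, 193] and 195 [174, 217] CPM in macrophage barcodes. Jak1 was high in both endothelial classes and lowest in melanoma ones, where macrophage barcodes exceeded it 2.84-fold in Cre plus and 3.61-fold in Cre minus. Socs1 in macrophages was 7.33 times the next of the 4 classes in Cre plus and 5.52 times in Cre minus, while all neighbouring Ptpn2 levels overlapped in Cre minus.

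By likeness of pattern over the 8 sums of class and library, among 9712 eligible genes, the nearest genes to Ifngr1 were Arhgap26, Anxa3 and Nucb2 (Pearson r of 0.975, 0.973 and 0.972). Irf1 was nearest to Parp9, Rtp4 and Trim30a (0.993, 0.993 and 0.991), all known as interferon-induced genes. Ifngr2 was nearest to Mob3c, Ifi203 and Casp8 (0.976, 0.964 and 0.960), Jak1 to March3, Cast and Fcho2 (0.997, 0.996 and 0.996), and Jak2 to Abcg1, Plcl1 and Nhlrc3 (0.998, 0.995 and 0.995). Socs1 was nearest to Mia2, Acer3 and Slc15a3 (0.998, 0.996 and 0.996), and Ptpn2 to Krr1, Ptcd2 and Coa7 (0.989, 0.980 and 0.975). These describe 8 points from 2 libraries, and the classes of a library share its depth and free RNA.

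The source of the ligand was counted too. Ifng, which encodes interferon-γ, had 33 UMIs in the whole Cre plus library and 66 in the Cre minus library. Of these 25 and 37 lay in T and NK barcodes, in 6 of 11 and 5 of 11 barcodes. Cells with CD45 were sorted away, so these counts do not measure the ligand in the tumor.

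A wider list of 22 genes of interferon and cytokine signalling was counted alongside. In lymphatic barcodes 17 were measured, of which 5 were more than 1.5-fold higher in Cre plus and 0 lower, beside the 20.6% and 2.84% of all genes. They were Stat2 at 57.3 and 27.3 CPM and Irf9 at 61.5 and 37.6 CPM, both transcription factors of type I interferon signalling, Usp18 at 44.8 and 29.1 CPM, an inhibitor of type I interferon signalling, and the cytokine signal inhibitors Socs2 at 41.2 and 15.7 CPM and Socs3 at 41.6 and 13.3 CPM. Relative to the median of all genes their log2 ratios were 0.86 (Stat2), 0.50 (Irf9), 0.41 (Usp18), 1.18 (Socs2) and 1.43 (Socs3). Within Malat1-rich barcodes Socs2 (0.90 [0.24, 1.64]) and Socs3 (0.93 [0.28, 1.68]) were still past 1.5-fold, and Stat2 (0.24 [−0.20, 0.73]), Irf9 (0.20 [−0.24, 0.67]) and Usp18 (0.40 [−0.16, 1.01]) were not.

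In blood endothelial barcodes 1 of 17 measured was past 1.5-fold higher, beside 6.74% of all genes: Socs3 with 94 and 20 UMIs (1.79 [1.08, 2.57]). Melanoma barcodes had 1 of 20, beside 2.66%: the MHC class I activator Nlrc5 (0.84 [0.66, 1.03]). Macrophage barcodes had 3 of 18, beside 8.67%: the myeloid factor Irf8 (0.61 [0.39, 0.83]), Nlrc5 (0.74 [0.32, 1.16]) and the MHC class II activator Ciita (1.28 [0.78, 1.79]). Over all barcodes of each of the 4 classes 0 of the genes with at least 50 UMIs were past 1.5-fold lower, beside shares of all genes of 2.84% (lymphatic), 5.87% (blood endothelial), 2.52% (melanoma) and 6.75% (macrophage). The 2 to 5 genes of the list under that minimum were not called.

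Genes that the pathway induces were, summed, lower in lymphatic and higher in blood endothelial barcodes of Cre plus. Of 7 such genes (Gbp2, Iigp1, Irgm1, Psmb8, Psmb9, Tap1 and Nlrc5), summed, lymphatic barcodes held 487 CPM in Cre plus, against 709 CPM in Cre minus, a log2 ratio of −0.54 [−0.63, −0.45], against 0.75 for Irf1. Relative to the median of all genes the summed ratio was −0.75. Over all lymphatic barcodes only Gbp2 of the 7, an interferon-induced GTPase, was past 1.5-fold lower (35.6 and 162 CPM), beside 2.84% of all genes. In Malat1-rich ones Gbp2 and Nlrc5 were, beside 15.3%, with 6 of 7 below 0 and Psmb8 above (0.52 [0.20, 0.85]). In Malat1-poor ones 2 of 6 measured were (Gbp2 and Iigp1), beside 3.15%. Without cycling barcodes 3 of 7 were (Gbp2, Iigp1 and Psmb9), beside 2.94%. Without Gbp2 the lymphatic sum had a log2 ratio of −0.28 [−0.38, −0.17], and of −0.12 [−0.27, 0.03] in Malat1-rich barcodes. With Gbp2 the summed ratio was −0.24 [−0.38, −0.10] in Malat1-rich and −0.73 [−0.87, −0.59] in Malat1-poor barcodes. The blood endothelial sum stood at 1120 and 491 CPM, with 1.19 [1.10, 1.27], against 0.97 for Irf1, and 6 of the 7 were past 1.5-fold higher, beside 6.74% of all genes. In melanoma barcodes the summed ratio was 0.39 [0.36, 0.42] and in macrophage barcodes 0.46 [0.37, 0.54].

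**Figure D4:**
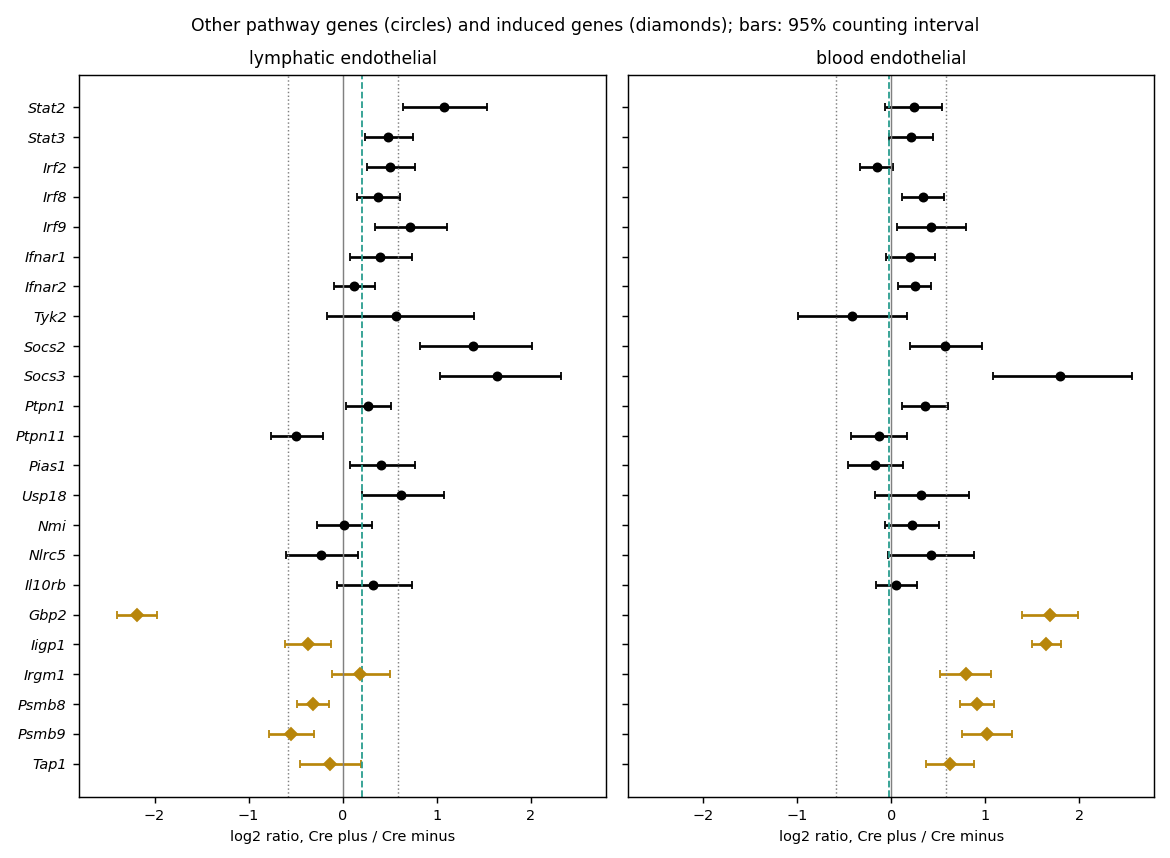
Log2 ratio of Cre plus over Cre minus for other pathway genes (circles) and further induced genes (diamonds) in lymphatic and blood endothelial barcodes, with bars for 95% counting intervals, dotted lines at 1.5-fold and a dashed line at the median of all well-measured genes. Socs3 lies past 1.5-fold in both classes (1.64 and 1.79), and Gbp2 lies below 0 in lymphatic (−2.19) and above 0 in blood endothelial (1.68) barcodes.

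Lymphatic barcodes with and without an Ifngr1 UMI were also set side by side within a library. In Malat1-rich lymphatic barcodes of Cre plus, the 239 with an Ifngr1 UMI had 43.2 [39.0, 47.7] CPM of Irf1 and the 182 without had 45.7 [39.6, 52.3] CPM. The 7 induced genes summed to 467 [453, 481] and 521 [501, 543] CPM. In Cre minus, with 23 and 13 barcodes, the sums were 584 [525, 647] and 542 [437, 664] CPM. Malat1-poor barcodes of Cre plus, 25 with and 228 without the UMI, had sums of 502 [445, 565] and 501 [467, 536] CPM. In Malat1-poor barcodes of Cre minus the 16 with the UMI had 1584 [1396, 1791] CPM and the 112 without had 659 [600, 722] CPM, so the direction was not the same in every set. Malat1-rich barcodes with an Ifngr1 UMI were also deeper, with medians of 35452 against 22882 UMIs in Cre plus and 19888 against 11982 in Cre minus. So were Malat1-poor ones, with 13842 against 5168.5 in Cre plus and 9732 against 5007 in Cre minus. A barcode without the UMI may still express the gene.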

How the data were processed

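The deposited tables give counts, whole numbers of UMIs for 32285 genes in each barcode per the file headers, from single-cell 3′ kit v3.1 per the labels' protocols. Reads were processed with Cell Ranger 7.0.0 on mm10, per the submitters' processing notes, and the annotation, cell calling and intron setting are not given in the sources used here. Gene positions come from GENCODE on mm10.

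Barcodes with at least 500 genes, under 10% mitochondrial and at most 50% haemoglobin UMIs were kept. A class score was the mean log of scaled marker counts divided by its percentile 99.5 over kept barcodes. A barcode entered a class with a score of at least 0.3, at least 2 times every other of 6 scores, and at least 3 markers detected. With no single class were 363 Cre plus and 285 Cre minus barcodes. No doublet caller was used, and barcodes scoring for several classes dropped out by this rule. The libraries share 1 barcode sequence.

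Each gene's UMIs were added up over a class of a library and divided by that class's total (CPM). Sums have exact Poisson, shares exact Clopper-Pearson and ratios exact conditional binomial 95% intervals. Only the ratio intervals were checked, on counts simulated with Poisson error, the model they assume. That check does not cover UMIs clumped in few barcodes. Intervals of differences between ratios combine both errors on the log scale. A log2 ratio sets Cre plus over Cre minus. With 1 library per group no p-value was computed. A call needed 1.5-fold and 50 UMIs over both libraries, and the median of all genes used those with at least 200. Where a count was 0, no finite log2 ratio could be given. The 7 members were named in every class, other pathway genes where past 1.5-fold with an interval off 0, and for each member the 3 genes of highest Pearson r. Gbp2, Iigp1, Psmb8 and Psmb9 are named beyond that rule, after their values were seen. 1 gene of the wider and induced lists is not reported here. The members and lists were chosen with earlier results of these data known. Alternatives covered the class score, barcode filters, the scaling, averaging over barcodes, thinning each barcode to 2000 UMIs, Malat1 content, cycling barcodes, mixed barcodes, Leiden clusters and the fold. Chosen after seeing the data were leaving out the 5 richest barcodes, leaving out macrophage barcodes with lymphatic marker UMIs, leaving Gbp2 out of the induced sum, and the stricter score with Malat1-rich barcodes. Tools were Python 3.11.15, numpy 2.4.6, scipy 1.17.1, scanpy 1.11.5 and matplotlib 3.10.9.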

Additional observations from a re-analysis of the deposited data

Results flagged for a closer look

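For 8 pairs of classes the log2 ratios of a member had counting intervals on opposite sides of 0. With 1 library per genotype these differences were not tested between replicates. For Ifngr1 the lymphatic minus blood endothelial difference was −1.04, and the blood endothelial minus macrophage difference was 1.07. For Ifngr2 the differences were 0.57 (lymphatic minus melanoma), 0.76 (lymphatic minus macrophage), 0.71 (blood endothelial minus melanoma) and 0.89 (blood endothelial minus macrophage). For Jak1 they were 0.55 (lymphatic minus macrophage) and 0.35 (melanoma minus macrophage).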

How the results depend on the processing

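With 1 library per genotype, the counting intervals carry no error between animals, and the genotype cannot be told apart from the library, its depth and its share of Malat1-rich barcodes. No paired analysis was possible because each genotype has 1 library. Lymphatic Ifngr1 stayed below 0 under all 11 alternatives to the class rule, filters, scaling and barcode type, from −1.44 (Malat1-rich) to −0.30 (class score 4 times every other). Among ratios whose interval lay off 0, signs turned for Ifngr1 in blood endothelial barcodes (−0.10 thinned, −0.26 Malat1-poor), Ifngr2 in blood endothelial (−0.071 Malat1-poor) and macrophage barcodes (0.30 thinned), Jak1 in macrophages (0.21 with Leiden clusters) and Irf1 in melanoma (−0.77 Malat1-poor), and the cause was not tested. The lymphatic count of 2 members past 1.5-fold became 1 with the stricter score, the median ratio set to 0, Malat1-rich barcodes or Leiden clusters, and 0 in Malat1-poor barcodes or at 2-fold. The blood endothelial count of 1 became 2 thinned and 0 in Malat1-poor barcodes or at 2-fold. The melanoma count of 0 became 1 with a mean over barcodes, in Malat1-rich or Malat1-poor barcodes, or without cycling barcodes. The macrophage count of 2 became 5 with the stricter score, 4 with a mean over barcodes, 3 without cycling barcodes, and 0 thinned, in Malat1-poor barcodes, with Leiden clusters or at 2-fold. Thinned and Malat1-poor sums hold few UMIs, so members drop under the minimum there. Of 352 further values of single members, 280 lay within the counting interval of the reported ratio and 66 outside it, beside the 6 turns above. The 13 ratios whose interval includes 0 each turned sign at least once, in 38 values, of which 6 had intervals off 0: Jak2 in lymphatic (−0.57 Malat1-rich, −0.64 with the stricter score too) and macrophage barcodes (0.57 with Leiden clusters), and Socs1 in melanoma (3.60 thinned, from 8 UMIs) and macrophage barcodes (−0.96 with the stricter score, −0.98 with Malat1-rich barcodes too). The macrophage values with Leiden clusters come from a cluster of 169 barcodes, of which 99 were in the macrophage gate. Malat1-poor macrophage ratios gave no value for members at 0 UMIs.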
